A study of Mus musculus with 12 samples.

Results

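The 31 genes examined here make cholesterol, control its synthesis, take it up, release it from the lysosome, export it or, in the case of Cyp46a1, oxidise it. Their accessible chromatin was taken from 3 tables of ATAC-seq peaks (stretches of open DNA into which the Tn5 transposase could insert sequencing adapters), by collecting each peak whose deposited nearest-gene name was 1 of the 31. This gave 538 of 281974 peaks: 216 of 91770 for microglia, 144 of 107627 for NeuN+ nuclei and 178 of 82577 for Olig2+ nuclei. Peaks within 1000 bp of the nearest annotated start were treated as start-site peaks (55, 50 and 53 in the 3 tables) and the others as distal peaks (161, 94 and 125). All 31 genes had a start-site peak in the microglial table, 29 in the NeuN+ table and 28 in the Olig2+ table. Mvd and Hsd17b7 had no peak of either kind under their names in the Olig2+ table. The start of the neighbouring gene 3110045C21Rik lies inside the microglial start-site peak of Hsd17b7, so a peak there may carry that other name. By the deposited distances, Dhcr7 had distal peaks alone in both nuclei tables, and Mvk had distal peaks alone in the NeuN+ table. The Dhcr7 peak at 6968 bp in microglia, matched in both nuclei tables and counted as distal, overlaps a further RefSeq start of Dhcr7. A nearest-gene name records position only and does not tie a distal peak to the regulation of that gene.

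The libraries came from forebrains of C57BL/6 mice aged 4 months, either wild type (WT) or SgshKO, in which the gene for a lysosomal sulfatase that degrades heparan sulfate is knocked out. The labels do not state the kind of Sgsh allele. Microglia were sorted as live cells positive for CD11b and CX3CR1 with low CD45. Neuronal nuclei (NEUN positive, PU.1 and OLIG2 negative) and oligodendrocyte-lineage nuclei (OLIG2 positive, PU.1 and NEUN negative) were sorted after light formaldehyde fixation. Each of the 6 groups of sort and genotype had 2 libraries, with no batch, sex or animal number in the labels, so p-values measure the spread between these libraries, which may be technical.

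Cholesterol is made from acetyl-CoA through mevalonate, isoprenoids, squalene and a series of sterols. The brain makes its own cholesterol, because the blood-brain barrier keeps out that of the circulation, and myelin holds much of it. When sterols in the endoplasmic reticulum fall, SCAP carries the membrane-bound SREBP factors (Srebf1 and Srebf2) to the Golgi, where they are cleaved and released to switch on synthesis and uptake genes, and the INSIG proteins hold SCAP back when sterols are high. When oxysterols accumulate, the liver X receptors (Nr1h2 and Nr1h3) switch on the exporters Abca1 and Abcg1 and also Mylip, whose product is a ubiquitin ligase that lowers cholesterol uptake. Lysosomal acid lipase (Lipa) and the sterol carriers Npc1 and Npc2 free cholesterol from lysosomes, and neurons dispose of it through 24-hydroxylation by Cyp46a1.

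Library totals were 10771659 to 11804222 tags for the microglia libraries, 14326703 to 17706971 for NeuN+ and 15044194 to 19555924 for Olig2+. The deposited values are tags scaled to a total of 10000000 per library, called normalized tags below, on which 1 tag is worth 0.511 to 0.928. The share of tags in peaks ran from 48.7% to 67.4% over the microglia libraries, from 21.2% to 26.7% in NeuN+ and from 30.9% to 31.8% in Olig2+. The sorts carried their own markers: 9 of 10 microglia markers had a start-site peak in microglia, all 10 neuron markers had one in NeuN+ nuclei, and all 10 oligodendrocyte markers had one in Olig2+ nuclei. Markers of other cell types had start-site peaks too: in microglia 2 of 10 neuron, 6 of 10 oligodendrocyte, 4 of 8 astrocyte, 3 of 6 endothelial and 2 of 8 blood myeloid markers, in NeuN+ nuclei 1 of 10 microglia, 5 of 10 oligodendrocyte, 3 of 8 astrocyte and 1 of 6 endothelial markers, and in Olig2+ nuclei 2 of 10 microglia, 5 of 10 neuron, 2 of 8 astrocyte and 1 of 6 endothelial markers. Neither nuclei table had a start-site peak for any of 8 blood myeloid markers.

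**Figure D1:**
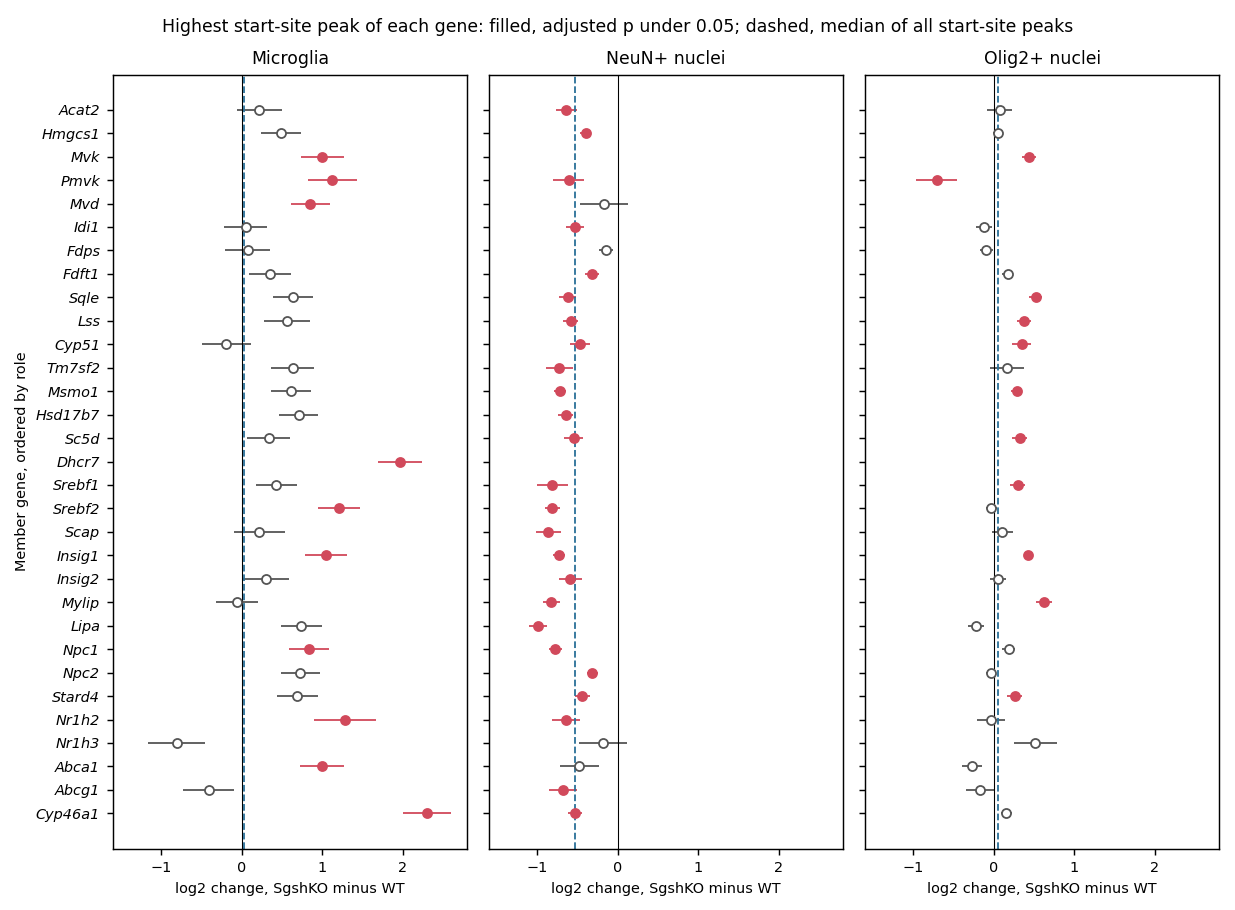
Log2 change (SgshKO minus WT, on the scale of log2 of normalized tags + 1) of the highest start-site peak of each gene in microglia, NeuN+ nuclei and Olig2+ nuclei. Points are estimates with standard errors from 2 against 2 libraries, filled where the adjusted p was under 0.05, and the dashed line is the median of all start-site peaks of that table. Of the 31 microglial peaks 27 lie to the right of 0, and all 29 NeuN+ peaks lie to the left of it, where the dashed line also lies.

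The promoter sequences below belong to 6 genes called at a start site in microglia (Mvk, Dhcr7, Insig1, Srebf2, Abca1 and Cyp46a1) and to Hmgcs1, which heads the pathway and was not called there. Mvd, Npc1, Nr1h2, Pmvk and Srebf1 were also called and are not printed. The sequences are the 250 bases before a RefSeq start in assembly GRCm38.p6, 5′ to 3′ on the strand of the gene. Capitals mark CCAAT, the letters of the NF-Y box that often accompanies SREBP sites, the E-box CACGTG, to which TFEB, MITF and TFE3 and also SREBPs can bind, and TCACNCCAC, a form of the sterol regulatory element. Both strands were searched, so CCAAT may appear as ATTGG, and no match overlaps another in these stretches.
Hmgcs1 (chr13:119690101-119690350, forward strand): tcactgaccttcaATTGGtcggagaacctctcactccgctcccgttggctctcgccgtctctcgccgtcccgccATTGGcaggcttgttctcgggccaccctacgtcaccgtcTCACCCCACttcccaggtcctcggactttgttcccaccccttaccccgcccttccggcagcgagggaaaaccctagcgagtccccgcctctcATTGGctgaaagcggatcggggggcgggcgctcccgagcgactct
Mvk (chr5:114444019-114444268, forward strand): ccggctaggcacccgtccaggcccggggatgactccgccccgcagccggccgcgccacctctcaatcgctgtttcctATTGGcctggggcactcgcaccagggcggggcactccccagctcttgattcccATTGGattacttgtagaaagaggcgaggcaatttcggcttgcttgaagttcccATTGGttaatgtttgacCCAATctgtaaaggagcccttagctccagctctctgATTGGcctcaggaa
Dhcr7 (chr7:143822917-143823166, forward strand): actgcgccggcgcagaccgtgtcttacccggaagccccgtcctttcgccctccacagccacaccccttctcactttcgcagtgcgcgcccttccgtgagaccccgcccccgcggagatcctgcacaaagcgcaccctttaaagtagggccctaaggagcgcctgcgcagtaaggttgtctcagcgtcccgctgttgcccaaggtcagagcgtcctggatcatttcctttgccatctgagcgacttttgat
Insig1 (chr5:28071162-28071411, forward strand): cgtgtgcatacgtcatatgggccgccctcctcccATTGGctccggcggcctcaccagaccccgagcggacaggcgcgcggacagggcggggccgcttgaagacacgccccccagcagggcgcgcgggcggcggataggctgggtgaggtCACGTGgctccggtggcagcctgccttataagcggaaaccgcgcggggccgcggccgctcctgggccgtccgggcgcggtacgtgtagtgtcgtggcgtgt
Srebf2 (chr15:82147019-82147268, forward strand): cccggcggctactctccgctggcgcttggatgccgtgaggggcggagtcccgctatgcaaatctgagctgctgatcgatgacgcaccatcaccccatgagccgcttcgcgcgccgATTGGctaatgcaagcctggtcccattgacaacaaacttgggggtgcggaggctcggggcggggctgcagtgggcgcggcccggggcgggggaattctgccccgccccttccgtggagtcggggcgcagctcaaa
Abca1 (chr4:53159896-53160145, reverse strand): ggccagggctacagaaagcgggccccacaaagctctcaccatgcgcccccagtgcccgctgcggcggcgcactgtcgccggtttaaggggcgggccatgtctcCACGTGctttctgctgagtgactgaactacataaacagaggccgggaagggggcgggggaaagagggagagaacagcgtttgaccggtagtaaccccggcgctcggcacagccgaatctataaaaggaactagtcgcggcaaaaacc
Cyp46a1 (chr12:108334066-108334315, forward strand): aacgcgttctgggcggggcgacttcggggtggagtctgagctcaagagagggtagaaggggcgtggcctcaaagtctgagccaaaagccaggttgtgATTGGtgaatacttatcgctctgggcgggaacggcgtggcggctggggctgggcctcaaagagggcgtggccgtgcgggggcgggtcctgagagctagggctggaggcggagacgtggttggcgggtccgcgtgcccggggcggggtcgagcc
Among the shown stretches, the sterol element occurs in Hmgcs1 alone and the E-box in Insig1 and Abca1. Mvk holds CCAAT 5 times within 250 bases, and the Dhcr7 stretch shown holds none of the 3 motifs. The 250 bases before a further RefSeq start of Dhcr7 (chr7:143829964-143830213), not printed, hold CCAAT 2 times.

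RefSeq promoters (250 bases before to 50 after a start) were found for 25 of the 31 genes. CCAAT was present in 20 of the 25 (80.0%), compared with 41.1% of all 27025 genes searched. Of the 23 members whose promoter overlapped a microglial peak 18 held it, compared with 40.2% of the 11098 such genes. CACGTG was present in 6 of the 25 (24%), namely Abca1, Dhcr7 (at an annotated start downstream of the one shown), Hsd17b7, Insig1, Sc5d and Scap, compared with 8.09% of all genes. These 6 were all among the 23, compared with 11.4% of genes with an overlapping microglial peak. Overlap was counted over the whole promoter and not at the motif. The CACGTG of Dhcr7 lies outside the microglial peak, which covers 41 bases of that promoter. The letters GGGCGG, also searched, were in 22 of the 25, compared with 38.2% of all genes. They were in 22 of the 23, compared with 68.8% of genes with an overlapping microglial peak. TCACNCCAC was present in 1 of 25 (4.00%), compared with 1.44% of all genes. The longer palindrome TCACGTGA, which contains CACGTG, was in 0 of 25 and in 1.12% of all genes. These are matches of letters, and binding was not measured here.

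The first question was how accessible the start sites of these genes were in WT animals of the 3 sorts. Peaks were matched one to one over the tables by a reciprocal overlap of 50%, which kept 34 start-site peaks of 25 of the 31 genes. Of these 34, 23 differed between WT microglia and NeuN+ nuclei at an adjusted p under 0.05 in 1 limma model of the 12 libraries, against 67.1% of all matched start-site peaks. Between microglia and Olig2+ nuclei 22 differed (background 70.1%), and between NeuN+ and Olig2+ nuclei 21 differed (background 52.0%). These shares are close to their backgrounds. The tables were made separately, each library was scaled to the same total, and live cells and fixed nuclei cannot be told apart from cell type, so levels across sorts depend on the scaling: of the 23 differences between microglia and NeuN+ nuclei, 18 were higher in microglia, but after median-of-ratios scaling it was 10 of 23.

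**Figure D2:**
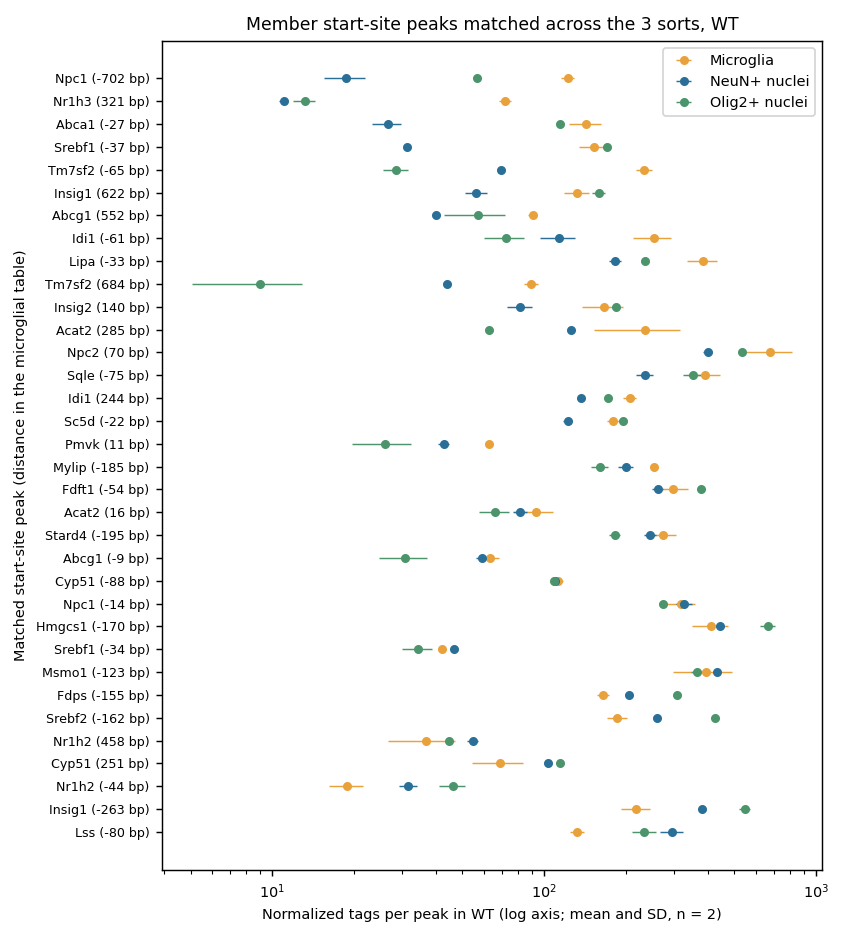
Normalized tags per peak in WT (x axis, log scale) of the 34 matched start-site peaks of member genes (y axis), as the mean of 2 libraries with the SD for microglia, NeuN+ nuclei and Olig2+ nuclei. Microglia have the highest mean in 18 peaks, Olig2+ nuclei in 11 and NeuN+ nuclei in 5, and the Nr1h3 and Abca1 points lie far apart while those of Cyp51 at -88 bp coincide.

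Of these differences, 15 between microglia and NeuN+ nuclei, 17 between microglia and Olig2+ nuclei and 13 between the nuclei sorts kept direction and call under total, median-of-ratios and quantile scaling. The start-site peak of Nr1h3, which encodes liver X receptor alpha, had 71.8 ± 3.83 normalized tags in WT microglia (SD, n = 2), 11.0 ± 0.42 in NeuN+ and 13.1 ± 1.22 in Olig2+ nuclei, a log2 difference of 2.60 and 2.37 between microglia and the nuclei sorts. NeuN+ and Olig2+ levels of Nr1h3 did not differ by more than their spread (adjusted p = 0.542). Abca1, the exporter that loads apolipoproteins with cholesterol, had 143 ± 19.6 normalized tags in WT microglia, 26.6 ± 3.26 in NeuN+ and 114 ± 3.59 in Olig2+ nuclei. Its NeuN+ level was the lowest, while microglia and Olig2+ nuclei did not differ beyond their spread (adjusted p = 0.145). Npc1 at -702 bp had 122 ± 6.75 in microglia, 18.7 ± 3.24 in NeuN+ and 56.6 ± 0.88 in Olig2+ nuclei, a log2 difference of 2.66 between microglia and NeuN+ nuclei. The stronger Npc1 peak, at -14 bp, had 318 ± 42.0, 328 ± 22.3 and 273 ± 2.02 in the same order. There microglia and NeuN+ nuclei did not differ under total scaling (-0.05, adjusted p = 0.741). After median-of-ratios (-0.55) and quantile scaling (-0.42) microglia were called lower at that peak. Tm7sf2, a sterol reductase, had 234 ± 15.4 in microglia, 69.3 ± 0.54 in NeuN+ and 28.6 ± 2.99 in Olig2+ nuclei at -65 bp, and each of the 3 differences was called under the 3 scalings. Its second peak, at 684 bp, had 89.4 ± 5.49, 43.8 ± 1.29 and 8.99 ± 3.92, where the difference between microglia and Olig2+ nuclei was 3.23 and that between microglia and NeuN+ nuclei (1.01) was not called after median-of-ratios or quantile scaling. In the other direction, Insig1 at -263 bp had 218 ± 26.7 in microglia, 380.1 ± 3.99 in NeuN+ and 546 ± 25.5 in Olig2+ nuclei, and Srebf2 had 186 ± 15.9, 260.5 ± 0.16 and 424 ± 8.85. At both of these peaks microglia were below each nuclei sort under all 3 scalings, whereas the order of the nuclei sorts was not called after quantile normalization. A second Insig1 peak, at 622 bp, was lowest in NeuN+ nuclei instead, with 132 ± 14.0 in microglia, 56.3 ± 5.08 in NeuN+ and 159 ± 8.97 in Olig2+ nuclei, and its difference of 1.21 between microglia and NeuN+ nuclei was called under all 3 scalings. Lss, the cyclase that forms the sterol ring system, was also lowest in microglia, at 132 ± 7.31 against 295 ± 28.2 and 233 ± 23.5. Cyp51 at -88 bp had 112 ± 5.20, 110.0 ± 0.17 and 109 ± 0.36, and no pair was called under total scaling. Cyp46a1 could not be matched at its start over the sorts by the overlap rule, but its highest start-site peaks had 80.8 ± 3.10 normalized tags in WT microglia, 300.4 ± 23.8 in NeuN+ and 451 ± 17.3 in Olig2+ nuclei.

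The main comparison was SgshKO against WT within each sort. In microglia, 35 of 216 member peaks were called by limma at an adjusted p under 0.05 over the whole table, 27 higher and 8 lower in SgshKO, against 7.37% of all microglial peaks. At start sites 13 of 55 member peaks were higher and 0 lower, where 8.59% of all start-site peaks were higher and 1.20% lower. The median log2 change of the 55 was 0.39, and that of all start-site peaks was 0.03. The 2 sets differ in level: the median WT mean was 112 normalized tags for the 55 and 48.0 for all start-site peaks. The part of this difference in the excess of calls and of the median was not tested. Both SgshKO libraries lay above both WT libraries at 31 of the 55 (56.4%) and below them at 8 (14.5%), against 32.7% and 25.1% of all start-site peaks, so that lack of overlap alone is common with 2 libraries per group. Among distal peaks 14 of 161 were higher and 8 lower, against 3.80% and 2.72% of all distal peaks. The excess of the start-site median over that of all start-site peaks was 0.31 to 0.41 on the log2 scale under the other scalings, filters, tools and with each library left out, except after quantile normalization, where it was 0.08. With tags scaled to those in peaks, 30 member peaks were called higher and 24 lower, so 55.6% in place of 77.1% of the calls were higher, and the median of all microglial peaks was -0.28 in place of -0.08.

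**Figure D3:**
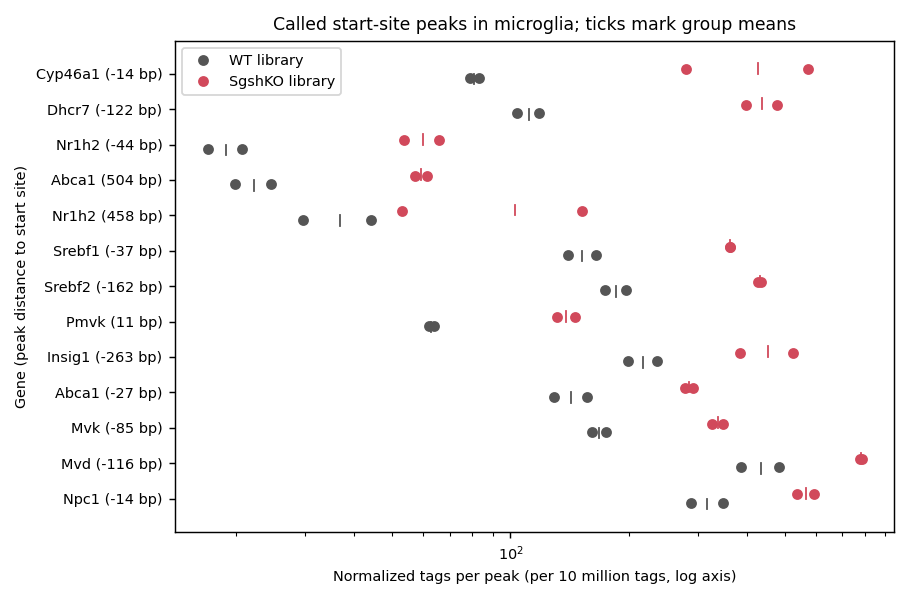
Normalized tags (x axis, log scale) in each of the 2 WT and 2 SgshKO microglia libraries for the 13 called start-site peaks of member genes, with ticks at the group means. In all 13 both SgshKO libraries lie above both WT libraries, and the SgshKO pair is widest for Cyp46a1 and for Nr1h2 at 458 bp.

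Of the mevalonate and isoprenoid genes, 3 of 7 rose at the highest start-site peak in microglia and none fell. Mvk, mevalonate kinase, had 175 and 161 normalized tags in WT and 349 and 326 in SgshKO at -85 bp, a log2 change of 1.00 ± 0.27 (SE, adjusted p = 0.0149). Pmvk, the next kinase, had 64.0 and 61.8 in WT and 132 and 146 in SgshKO (1.13 ± 0.31, adjusted p = 0.0178), and Mvd, the decarboxylase that follows, had 482 and 387 in WT and 777 and 785 in SgshKO (0.85 ± 0.24, adjusted p = 0.0236). The 3 genes encode consecutive steps of the pathway. The start of the divergent gene Mmab lies inside the Mvk promoter printed above, so the peak cannot be assigned to either gene alone. Hmgcs1, the synthase at the head of the pathway, had 456 and 368 in WT and 641 and 519.9 in SgshKO and was not called (0.49 ± 0.25, adjusted p = 0.238), nor were Acat2, Idi1 and Fdps, with changes of 0.22, 0.05 and 0.07.

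Among the 9 genes from squalene to cholesterol, 1 was called at its start site. Dhcr7, the last reductase of the pathway, had 118 and 104 normalized tags in WT microglia and 397 and 479 in SgshKO at chr7:143822901-143823189 (mm10), a log2 change of 1.96 ± 0.27 (adjusted p = 6.81e-06). An intronic peak of Dhcr7 at 9293 bp from the start had 41.5 and 33.9 in WT and 206 and 159 in SgshKO (2.24 ± 0.32, adjusted p = 1.17e-05). Both rose by 3.94- and 4.84-fold in the means, with no overlap between groups, and both stayed called with every library left out in turn and under all 10 other settings. The start of the divergent gene Nadsyn1 lies close to the Dhcr7 start-site peak, which overlapped a peak in each nuclei table. The other 8 genes of the group were not called at their highest start-site peak: 7 had positive changes, from 0.33 (Sc5d) to 0.71 (Hsd17b7, adjusted p = 0.0636), and Cyp51 had -0.19. In these 7 both SgshKO libraries lay above both WT libraries, as they did at 32.7% of all start-site peaks.

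All 5 genes of SREBP control had positive changes at their highest start-site peak, and 2 were called. Srebf2, the factor that mainly drives cholesterol synthesis, had 197 and 175 normalized tags in WT and 435 and 428 in SgshKO at -162 bp (1.21 ± 0.26, adjusted p = 0.00238), and Insig1 had 237 and 199 in WT and 384 and 525 in SgshKO (1.04 ± 0.26, adjusted p = 0.00998). Srebf1 has several annotated starts. The peak at chr11:60210396-60210620 had 165 and 139.8 in WT and 363 and 362 in SgshKO (1.25 ± 0.27, adjusted p = 0.00233), whereas the higher one at chr11:60222773-60223267 had 297 and 266 in WT and 404 and 356 in SgshKO and was not called (0.43 ± 0.26). The difference between these peaks was not tested. Scap and Insig2 had changes of 0.22 and 0.30. After quantile normalization Insig1 was not called (0.57, adjusted p = 0.0703), nor were Mvd (0.24) and Npc1 (0.29).

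Of the genes of uptake, lysosomal release and transfer, Npc1 rose at its start site, from 347 and 288 normalized tags in WT to 538 and 593 in SgshKO (0.83 ± 0.25, adjusted p = 0.0324). Lipa, Npc2 and Stard4, a cytosolic sterol carrier, had changes of 0.74, 0.73 and 0.69 and did not pass the test (adjusted p = 0.0609, 0.0510 and 0.0928). Mylip, the ubiquitin ligase, had 253 and 253 normalized tags in WT and 271 and 218 in SgshKO at its start, which was not called, and 7 of its 35 distal peaks fell and none rose. Of the 7, 6 lie in Mylip introns between 6368 and 13211 bp from the start and 1 lies 95522 bp upstream, and the 7 log2 changes run from -2.34 to -1.57. The strongest in WT, at chr13:45395984-45396236, had 136 and 146 in WT and 47.6 and 45.5 in SgshKO (-1.57 ± 0.31, adjusted p = 0.00117). The next, at 7149 bp, had 76.9 and 86.4 in WT and 26.8 and 21.4 in SgshKO (-1.73 ± 0.36, adjusted p = 0.00183). None of the 7 overlapped a peak of either nuclei table, as was so for 34 of all 35 distal Mylip peaks in microglia. At the weakest of the 7 a SgshKO library held 1 tag. The other 28 distal peaks of Mylip had changes from -1.43 to 1.33, 10 positive and 18 negative.

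Among export genes, Abca1 rose at its start and at intronic peaks. It had 156 and 129 normalized tags in WT and 292 and 279 in SgshKO at its start (chr4:53159715-53160129), a log2 change of 1.00 ± 0.27 (adjusted p = 0.0180). A second start-site peak at 504 bp had 19.9 and 24.6 in WT and 57.1 and 61.3 in SgshKO (1.38 ± 0.38, adjusted p = 0.0180). Of its 29 distal peaks, which span -36219 to 73019 bp, 8 rose and none fell. The 8 lie in Abca1 introns between 1797 and 40871 bp, with changes from 0.89 to 2.17 and no counterpart in the nuclei tables. Of all 29 distal peaks 24 had no such counterpart, nor did 72% of all microglial distal peaks. The peak at 2423 bp had 26.8 and 28.8 in WT and 105 and 87.3 in SgshKO (1.75 ± 0.35, adjusted p = 0.00107), and that at 3187 bp had 7.78 and 4.24 in WT and 33.8 and 26.0 in SgshKO (2.17 ± 0.48, adjusted p = 0.00296). The intronic peak with the most tags in WT, at 37856 bp, lies between the called increases at 35100 bp (1.55) and 40871 bp (1.81). It had 366 and 297 in WT and 477 and 429 in SgshKO and was not called (0.45, adjusted p = 0.295).

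**Figure D4:**
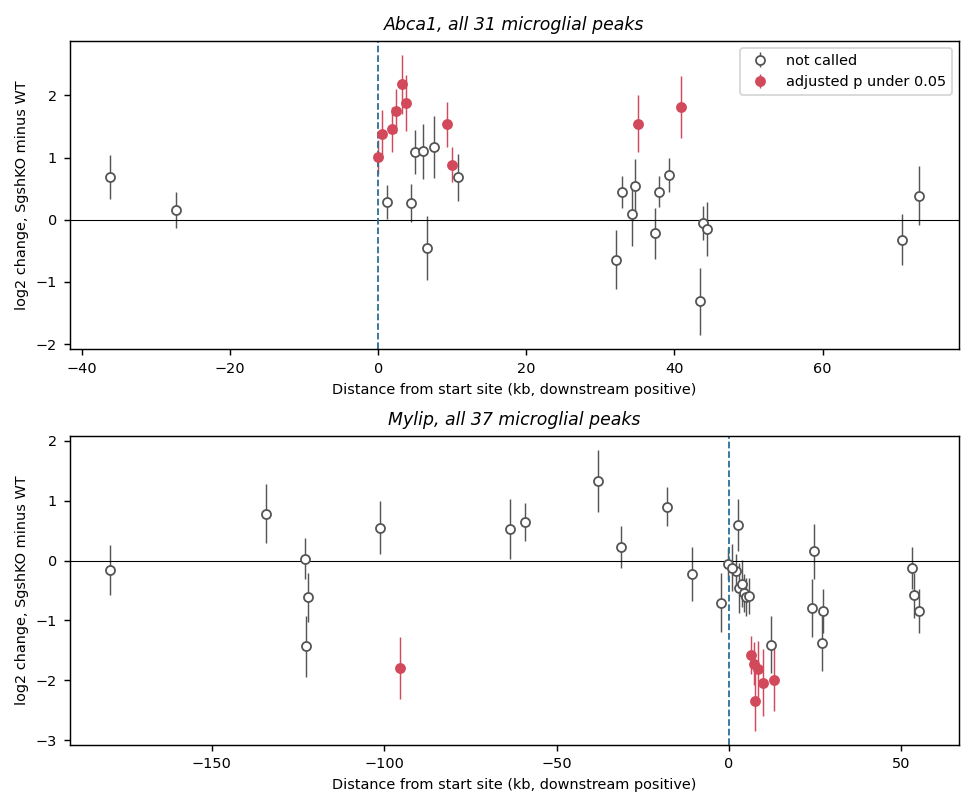
Log2 change (SgshKO minus WT, y axis, with standard error from 2 against 2 libraries) of every microglial peak assigned to Abca1 (31 peaks) and Mylip (37 peaks) by distance from the start site (x axis, kb). Filled points had an adjusted p under 0.05: 10 for Abca1, all above 0 and 8 of them within 10 kb of the start, and 7 for Mylip, all below 0.

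Of the other genes of this role, Nr1h2, liver X receptor beta, rose at 2 of its 3 start-site peaks, from 20.7 and 16.9 to 53.7 and 65.9 normalized tags at -44 bp (1.61 ± 0.38, adjusted p = 0.00634) and from 44.1 and 29.6 to 52.8 and 152 at 458 bp (1.29 ± 0.38, adjusted p = 0.0316). The latter was not called without SgshKO replicate 2 (0.53), nor under in-peak, median-of-ratios or quantile scaling or by DESeq2. Nr1h3 had 69.1 and 74.6 in WT and 53.7 and 30.6 in SgshKO (-0.81 ± 0.35, adjusted p = 0.165), and Abcg1 had 93.3 and 88.1 in WT and 77.9 and 59.4 in SgshKO (-0.41 ± 0.32, adjusted p = 0.484), so neither passed the test. None of the 21 distal peaks of Abcg1 in microglia was called, and their median change was -0.18.

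Cyp46a1 had the largest start-site change among the member genes in microglia. Its peak at chr12:108334153-108334451 had 78.6 and 83.0 normalized tags in WT and 280.5 and 575 in SgshKO, a log2 change of 2.30 ± 0.30 (adjusted p = 2.76e-06). Both SgshKO libraries were above both WT libraries, 1 of them far above the other. None of its 4 distal peaks was called. The neuron markers, of which 2 of 10 had a start-site peak in this sort, had summed start-site tags of 192 and 219 in the WT microglia. In the SgshKO microglia the sums were 312 and 157, so the groups overlapped. Whether other cell types take part in the Cyp46a1 change was not tested. The sums of the microglia, oligodendrocyte, astrocyte, endothelial and blood myeloid markers also overlapped between genotypes in this sort. In bulk libraries, fewer cells of a type and less accessibility per cell cannot be told apart.

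Besides Abca1, Mylip and Dhcr7, 6 distal member peaks were called in microglia. A peak at -45586 bp of Srebf1, in an intron of Tom1l2, had 7.78 and 4.24 normalized tags in WT and 31.2 and 23.2 in SgshKO (2.04 ± 0.48, adjusted p = 0.00581), and another Tom1l2 intron peak at -49523 bp rose by 1.69. Srebf2 rose at 9789 bp, in its own intron, from 7.78 and 5.93 to 31.2 and 18.6 (1.69 ± 0.48). The peaks nearest to Npc1 (in an intron of Ankrd29) and Sc5d rose by 2.28 and 1.73 from WT levels under 6 normalized tags. These 5 had no counterpart in the nuclei tables, as was so for 72% of all microglial distal peaks. The sixth, at -4845 bp of Pmvk in the 3′ UTR of Pbxip1, fell from 47.5 and 32.2 to 13 and 12.1 (-1.57 ± 0.43), opposite to the Pmvk start.

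The microglial calls depended on the WT libraries. Without either WT library limma called fewer peaks, among the members and among all start-site peaks alike, and without either SgshKO library it called more. The Dhcr7 start-site and intronic peaks and the Cyp46a1 start-site peak stayed called with each of the 4 libraries left out. No called microglial member peak changed sign under any setting run.

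In NeuN+ nuclei, 53 of 144 member peaks passed the test, 13 with more and 40 with fewer tags in SgshKO, against 29.8% of all NeuN+ peaks. At start sites 31 of 50 fell, 1 rose and 18 were not called, where 44.9% of all start-site peaks fell and 1.74% rose. These counts turned with the scaling and the test: median-of-ratios scaling gave 22 lower and 1 higher, in-peak scaling 15 and 3, quantile normalization 3 and 5, and DESeq2 8 and 0. Over all member peaks, 24.5% of the calls were higher under the main scaling, and 44.7%, 56.8% and 78.9% under those 3 scalings in turn. Both SgshKO libraries lay below both WT libraries at 39 of the 50 start sites and above them at 3, against 70.9% and 6.90% of all start-site peaks. The member median of -0.58 lay 0.04 below that of all start-site peaks, -0.53, so member start sites fell about as much as start sites in general. The median of all NeuN+ peaks was -0.23, and that of all distal peaks was -0.11. Among distal peaks 12 of 94 rose and 9 fell, against 12.6% in each direction for all distal peaks. Every marker list with a start-site peak had lower sums in SgshKO in this sort, the neuron list with 1242 and 1171 normalized tags in WT and 665 and 670.5 in SgshKO. Peaks held 26.7% and 25.9% of the tags of the WT libraries and 21.5% and 21.2% of those of SgshKO. Their part in the member changes was not tested.

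The sizes varied among members. Lipa had 189 and 176 normalized tags in WT and 92.8 and 89.5 in SgshKO (-0.99 ± 0.11, adjusted p = 6.31e-06), and Cyp51 at 219 bp had 102 and 105 in WT and 49.6 and 50.8 in SgshKO (-1.03 ± 0.14, adjusted p = 4.16e-05). These 2 were called under each of the 10 other settings that kept all libraries. Srebf2, with 261 and 260.4 in WT and 147 and 149 in SgshKO (-0.81 ± 0.09), Insig1 (-0.73 ± 0.07), Npc1 (-0.78 ± 0.08), Mylip (-0.82 ± 0.10) and Msmo1 (-0.72 ± 0.07) fell by more than the median start site, but were not called after quantile normalization. Npc2 (-0.32 ± 0.07), Fdft1 (-0.32 ± 0.08) and Hmgcs1 (-0.40 ± 0.07) fell by less, and their direction turned after quantile normalization, where Npc2 (0.223, adjusted p = 0.0282) and Fdft1 (0.245, adjusted p = 0.0400) were called higher, as did that of Stard4, Cyp51 at -106 bp, Idi1 at 276 bp and Cyp46a1. Fdps, with 208 and 203 in WT and 192 and 180 in SgshKO (-0.15 ± 0.09), was not called, and its sign turned under 5 settings. Cyp46a1, whose protein is mainly neuronal, had 317 and 284 normalized tags in WT and 209 and 205 in SgshKO at its start (-0.53 ± 0.08, adjusted p = 0.000196), at the level of the median start site.

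The increases in NeuN+ nuclei were distal apart from a weak peak of Fdft1 at 621 bp (5.10 and 5.08 in WT, 11.2 and 12.7 in SgshKO). A peak 29802 bp upstream of Abcg1 had 2.83 and 2.82 normalized tags in WT and 17.4 and 17.1 in SgshKO (2.26 ± 0.33, adjusted p = 9.49e-05), with no counterpart in the other sorts, while the Abcg1 start fell from 60.6 and 57.0 to 33.5 and 39.4 (-0.68 ± 0.17). Of the 7 distal peaks nearest to Stard4, 5 rose, by 0.83 to 1.5 on the log2 scale, and 4 of these lie in introns of the neighbouring gene Camk4. WT means at the 5 were low, from 2.54 to 13. Among distal decreases, a peak 6243 bp upstream of Cyp46a1, in an exon of Hhipl1, had 106 and 94.3 in WT and 53.8 and 55.2 in SgshKO (-0.86 ± 0.14, adjusted p = 0.000230). Without either SgshKO library limma made no call in this sort among the member peaks, nor among all start-site peaks, whereas edgeR on the recovered reads still called member peaks.

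In Olig2+ nuclei, 35 of 178 member peaks were called, 27 higher and 8 lower, against 19.8% of all Olig2+ peaks. At start sites 10 of 53 rose and 1 fell, against 12.7% and 7.56% of all start-site peaks, and the median changes of the member and of all start-site peaks were both 0.05. Both SgshKO libraries lay above both WT libraries at 19 of the 53 and below them at 16, against 34.7% and 26.2% of all start-site peaks. Among distal peaks 17 of 125 rose and 7 fell, against 6.70% and 13% of all distal peaks. Of these 17 increases, 10 lay in a single stretch near Mvk, which held 36 of the 125 peaks. The summed oligodendrocyte markers were lower in SgshKO (3586 and 3547 in WT, 2945 and 2941 in SgshKO), and the microglia and neuron sums were higher (240.2 and 233 against 271 and 284, and 261 and 296 against 346 and 336); whether these shifts take part in the member changes was not tested.

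The start-site increases in Olig2+ nuclei ran from 0.26 (Stard4) to 0.62 (Mylip) on the log2 scale. Of the 10, 6 lay at synthesis genes. Of the 28 genes with a start-site peak there, 6 were of the mevalonate and isoprenoid steps and 7 from squalene to cholesterol. From squalene to cholesterol, 5 of the 7 genes with a start-site peak rose. Sqle, squalene epoxidase, had 332 and 372 normalized tags in WT and 445 and 572 in SgshKO (0.52 ± 0.08, adjusted p = 4.01e-05), and Lss had 217 and 250.1 in WT and 285 and 318 in SgshKO (0.37 ± 0.09, adjusted p = 0.00320). Msmo1, Sc5d and Cyp51 at -89 bp rose by 0.28, 0.32 and 0.34. Mvk had 198 and 217 in WT and 266 and 296 in SgshKO (0.44 ± 0.09, adjusted p = 0.000730), while Pmvk, at 30.6 and 21.5 in WT and 13.5 and 17.3 in SgshKO, was the single start site that fell (-0.71 ± 0.26, adjusted p = 0.0478), and 6 of the 10 settings that kept all libraries did not call it. Hmgcs1 had 634 and 692 in WT and 670.2 and 698 in SgshKO, which overlap. Srebf2 had 418 and 431 in WT and 401 and 429 in SgshKO, which overlap as well.

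Insig1 gave opposite changes at its start and upstream of it. The start-site peak rose from 564 and 528 normalized tags to 699.7 and 770.4 (0.43 ± 0.06, adjusted p = 3.82e-06). A peak 15888 bp upstream, at chr5:28055388-28055660, fell from 144 and 136 to 36.9 and 48.5, a log2 change of -1.70 ± 0.15 (adjusted p = 1.33e-09). Both were called with each library left out and under every other setting, and the upstream peak had no counterpart in microglia or NeuN+ nuclei. All 8 distal peaks of Insig1 in this sort had negative changes, of which 2 were called. Mylip rose at its start, from 152 and 168 to 254 and 239 (0.62 ± 0.09, adjusted p = 2.06e-05), also under every setting and with each library left out. Of the export genes none was called at its highest start-site peak: Abca1 had 112 and 117 in WT and 92.8 and 95 in SgshKO (-0.28 ± 0.12, adjusted p = 0.107).

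A long stretch near Mvk carried 36 distal peaks in Olig2+ nuclei, against 1 in microglia and 3 in NeuN+ nuclei. Of the 36, 10 rose and none fell, over 6384 to 54448 bp from the start, by 0.39 to 1.82 on the log2 scale. The strongest, at chr5:114467447-114467654, had 205 and 208 normalized tags in WT and 262 and 282 in SgshKO (0.39 ± 0.09, adjusted p = 0.00154). The other 9 had WT means of at most 14.2, so that their fold changes rest on few tags. Of the 10, 4 lie in Mvk introns and the other 6 between genes, where the nearest-gene name is the only link to Mvk. A weak peak 2969 bp upstream of Tm7sf2, in an exon of Vps51, also rose, from 6.74 and 4.09 to 16.0 and 15.3 (1.41 ± 0.33, adjusted p = 0.00323), as did the other 2 distal peaks of Tm7sf2.

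**Figure D5:**
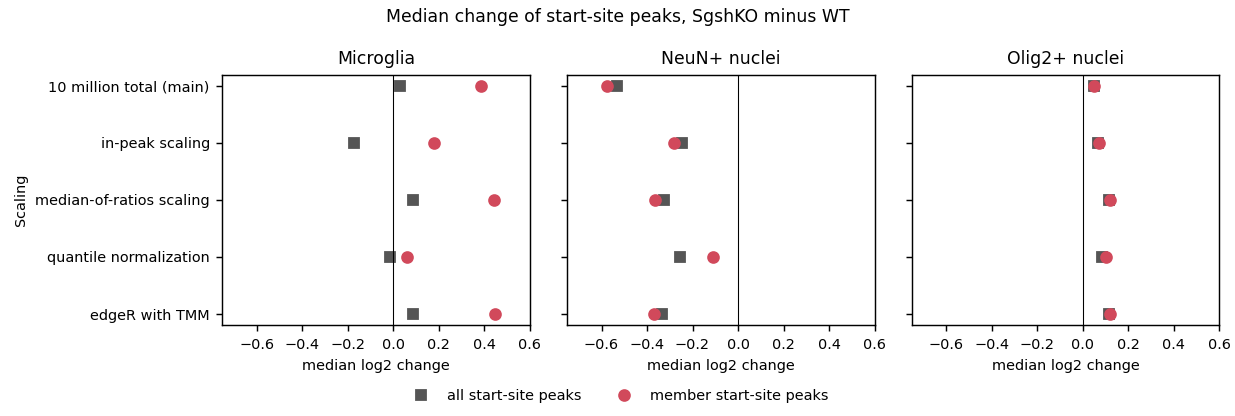
Median log2 change (SgshKO minus WT, x axis) of all start-site peaks (squares) and of member start-site peaks (circles) in the 3 sorts under 5 scalings (y axis). The gap between squares and circles is 0.36 in microglia under the main scaling and 0.08 after quantile normalization, and in Olig2+ nuclei squares and circles nearly coincide.

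Whether the genotype change differed between sorts was tested over the 43 matched member peaks (28 genes). The change was more positive in microglia than in NeuN+ nuclei at 31 of the 43 and more negative at 0, against 42.5% of all matched peaks called. The median of this difference was 1.03 for the members and 0.60 for all matched peaks. These sets are unlike: start-site peaks made up 34 of the 43 members and 10516 of the 16761 matched peaks. In the whole NeuN+ table the median change was -0.53 at start-site peaks and -0.11 at distal peaks. Between microglia and Olig2+ nuclei 16 of 43 differed, 13 more positive in microglia and 3 more negative (background 21.6%). Between NeuN+ and Olig2+ nuclei 22 differed, all more negative in NeuN+ nuclei (background 31.7%). These comparisons share libraries, and the first and last carry the shift of the NeuN+ table. After median-of-ratios scaling the counts were 20 (16 more positive in the first sort of the pair, 4 more negative), 13 (10 and 3) and 7 (2 and 5), and after quantile normalization 13 (7 and 6), 12 (7 and 5) and 5 (3 and 2).

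The differences that kept direction and call under all 3 scalings numbered 7, 9 and 2 for the 3 pairs. In microglia against NeuN+ nuclei these were Srebf2 (2.03), Srebf1 at -37 bp (2.16), Insig1 (1.77), Nr1h2 at both peaks (1.94 and 1.84), Pmvk (1.73) and Cyp51 at 251 bp (1.72). In microglia against Olig2+ nuclei they were Abca1 at its start (1.28) and at -36219 bp (1.13), Srebf2 (1.25), Nr1h2 at -44 bp (2.04), Pmvk (1.84), Cyp51 at 251 bp (0.87), and, with the change more negative in microglia, Mylip (-0.68), Nr1h3 (-1.32) and a Cyp46a1 peak at -1096 bp (-0.81). In NeuN+ against Olig2+ nuclei they were Mylip (-1.45) and Insig1 (-1.15). A matched peak counted as a member only where its nearest-gene name was the same in the 3 tables. The called Dhcr7 peaks and the called Cyp46a1 start had no such match, so the size of their microglial change was not tested against the nuclei. The Dhcr7 peaks at 6968 and 6391 bp were matched but were not called in microglia.

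Of the member start-site peaks, 76.4%, 80.0% and 75.5% in microglia, NeuN+ and Olig2+ nuclei overlapped peaks in both other tables, compared with 54.8%, 55.5% and 64.4% of all start-site peaks. Distal peaks were mostly found in 1 sort, with 75.8%, 64.9% and 74.4% unique among members and 72.0%, 70.9% and 62.9% among all.

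A list of 42 other genes of cholesterol handling gave 26 called of 317 microglial peaks (23 higher, 3 lower), 97 of 372 NeuN+ peaks (17 higher, 80 lower) and 64 of 308 Olig2+ peaks (22 higher, 42 lower). These shares of 8.2%, 26.1% and 20.8% are near those of all peaks, 7.37%, 29.8% and 19.8%. At start sites the microglial count was 12 higher and 2 lower of 79, against 8.59% and 1.20% of all start-site peaks. Of these genes, Tmem97, a sterol-responsive membrane protein, had 223 and 181 normalized tags in WT microglia at its start site and 547 and 440.0 in SgshKO microglia (log2 change 1.28 ± 0.26 SE, adjusted p = 0.00139).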

How the data were processed

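ATAC-seq libraries of 3 sorts and 2 genotypes, with 2 libraries per group, were analysed from 1 peak table per sort. Per the file headers, each deposited table holds HOMER peak annotations, a peak score, the distance to the nearest start and, per library, a signal of tags scaled by the authors to a total of 10000000. The submitters' processing notes name Bowtie2, HOMER and mm10, without versions. Peaks are 1 common set per table, and whether libraries were pooled for calling is not given in the sources used here. Deposited scores filtered peaks in 1 alternative alone, at their maximum of 1000. The deposited distance (bp) split start-site from distal peaks.

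The 31 members, their roles, the marker lists and the 42 further genes were chosen with earlier results of these data known. In each table limma 3.58.1 (R 4.3.3, with trend) was fitted over all peaks to log2(normalized tags + 1), so fold changes of weak peaks are understated, and Benjamini-Hochberg adjustment ran over the whole table. Calls are two-sided at an adjusted p under 0.05. A second limma model of the 12 libraries covered 16761 peaks matched in the 3 tables. Normalized tags were whole multiples of 1 tag for 100% of values (within 0.01 of a tag), and the recovered reads were tested with edgeR 4.0.16 (quasi-likelihood, TMM) and DESeq2 1.42.0 as alternatives. The fits were tested on simulated data. Other pseudocounts (0.5 and 5), low-signal and score filters, 3 scalings, a replicate block, a 500 bp start window, a 1 bp overlap and leaving out each library were tried, and leave-one-out by edgeR was added after seeing the data. Peaks named are the highest start-site peak per gene, each called start-site peak, up to 6 increases and 6 decreases among distal peaks per table, and matched peaks that differed between sorts; further peaks of Abca1, Mylip, Insig1, Mvk, Stard4 and Srebf1, and genes of the further list, were named after their values were seen. Promoter sequences came from RefSeq tables of GRCm38.p6. Sequences of distal peaks are not used here, and values of some single genes of the further list are not reported here.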

Additional observations from a re-analysis of the deposited data

Results flagged for a closer look

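For 35 of the 43 matched member peaks the log2 change with genotype differed between at least 1 pair of sorts. This was called in the 12-library limma model, which tests the difference itself. Of all matched peaks, 42.5% differed between microglia and NeuN+ nuclei, 21.6% between microglia and Olig2+ nuclei and 31.7% between the nuclei sorts. The share of all matched peaks called in at least 1 pair was not counted, so the 35 cannot be set against a background. The values below are the first sort's change minus the second's, each for the pair with the smallest adjusted p, and distances are those in microglia.

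Against NeuN+ nuclei, 28 changes were more positive in microglia. Among synthesis genes these were Acat2 at 16 bp (1.32) and 285 bp (0.861), Hmgcs1 (0.893), Pmvk at its start (1.73), Idi1 at -61 bp (0.663) and 244 bp (0.921), Fdft1 (0.669), Sqle (1.26), Lss (1.15), Cyp51 at 251 bp (1.72), Tm7sf2 at -65 bp (1.36), Msmo1 (1.33), Sc5d (0.881) and Dhcr7 at 6968 bp (0.927) and 6391 bp (1.05). The Dhcr7 peak at 6968 bp overlaps a further RefSeq start of the gene. Among control genes they were Srebf1 at -37 bp (2.16) and -34 bp (1.22), Srebf2 (2.03), Insig1 (1.77) and Insig2 (0.889). Among uptake, release and transfer genes they were Lipa (1.73), Npc1 at -14 bp (1.61), Npc2 (1.05) and Stard4 (1.13). Among receptor and export genes they were Nr1h2 at 458 bp (1.94) and -44 bp (1.84), and Abca1 at -27 bp (1.48) and -36219 bp (1.21). Of all 31 called differences for this pair, 16 kept call and direction after median-of-ratios scaling, and the Fdft1 difference was called in the opposite direction after quantile normalization (-0.617).

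Against Olig2+ nuclei, the Nr1h3 change was more negative in microglia (-1.32). The change was more negative in NeuN+ than in Olig2+ nuclei for Mylip (-1.45), Tm7sf2 at 684 bp (-1.31), Pmvk at 25729 bp (-1.14), Cyp46a1 at -1096 bp (-0.912), Abcg1 at -9 bp (-0.901) and Cyp51 at -88 bp (-0.813). Of these 6, Mylip alone kept its call and direction under both other scalings.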

How the results depend on the processing

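Counts of called member peaks moved most with the scaling, the test and the library left out; the cause was not tested. In microglia the count of 35 became 54 with in-peak scaling, 53 with median-of-ratios scaling and 60 with edgeR, and 3 to 65 with 1 library left out by limma (24 to 80 by edgeR, an alternative chosen after seeing the data). In NeuN+ nuclei the count of 53 became 19 after quantile normalization and 10 with DESeq2, and 0 to 27 with 1 library left out (by edgeR 26 and 28 without a WT library and 36 and 28 without a SgshKO library). In Olig2+ nuclei the count of 35 became 9 with DESeq2, and 11 to 34 with 1 library left out (21 to 32 by edgeR). With 1 library left out, the lone library of a group is assumed to vary like the others. In microglia and NeuN+ nuclei the limma calls over all start-site peaks moved in the same direction as those of the members.

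Differences between sorts in the genotype change numbered 31 for microglia against NeuN+ nuclei, 20 after median-of-ratios scaling and 13 after quantile normalization (26 to 32 with 1 library left out). For microglia against Olig2+ nuclei the count of 16 ranged from 8 to 19 with 1 library left out. For NeuN+ against Olig2+ nuclei the count of 22 became 7 and 5 after those scalings (12 to 24). The WT counts of 23, 22 and 21 stayed within 1.5 times under each scaling, and ranged over 19 to 25, 18 to 23 and 17 to 26 with 1 library left out.

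Deviations of same-numbered libraries from their group means had correlations over peaks of 0.0420, 0.00361 and 0.000688 in the 3 tables. This measure leaves out shifts shared by a whole library, so it cannot decide whether replicate numbers pair the libraries. In microglia the share of tags in peaks was higher in replicate 1 of both genotypes (55.8% and 48.7% in WT, 67.4% and 53.7% in SgshKO). With the replicate number as a block, 62, 55 and 35 member peaks were called, against 35, 53 and 35 without it.

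Signs turned for named start-site peaks as follows. After quantile normalization in microglia the log2 changes were -0.187 for Acat2 (285 bp), -0.152 for Fdft1, -0.226 for Fdps, -0.0791 for Hmgcs1, -0.364 for Idi1, -0.0240 for Insig2, -0.0185 for Sc5d and -0.0558 for Srebf1 (-439 bp). In-peak scaling gave -0.132 for Fdps and -0.154 for Idi1. After quantile normalization in NeuN+ nuclei they were 0.0356 for Cyp46a1, 0.0640 for Cyp51 (-106 bp), 0.245 for Fdft1, 0.420 for Fdps, 0.138 for Hmgcs1, 0.0229 for Idi1 (276 bp), 0.223 for Npc2 and 0.134 for Stard4. In NeuN+ nuclei in-peak scaling, median-of-ratios scaling, edgeR and DESeq2 gave 0.152, 0.0699, 0.0718 and 0.0703 for Fdps, 0.110, 0.0341, 0.0481 and 0.0530 for Mvd, and 0.0908, 0.0158, 0.0255 and 0.0215 for Nr1h3. In Olig2+ nuclei median-of-ratios scaling, edgeR and DESeq2 gave 0.0355, 0.0350 and 0.0370 for Npc2, 0.0300, 0.0328 and 0.0335 for Nr1h2 (0.0291 after quantile normalization), and 0.0359, 0.0340 and 0.0358 for Srebf2, and quantile normalization gave -0.00959 for Hmgcs1. With 1 library left out, signs turned within the ranges -0.141 to 0.585 (Acat2 at 285 bp), -0.472 to 0.0951 (Cyp51), -0.134 to 0.281 (Fdps), -0.113 to 0.218 (Idi1) and -0.214 to 0.0972 (Mylip start) in microglia, -0.485 to 0.152 (Mvd) in NeuN+ nuclei, and -0.430 to 0.0808 (Abcg1 at 531 bp), -0.0579 to 0.197 (Acat2), -0.0177 to 0.110 (Hmgcs1), -0.0197 to 0.121 (Insig2), -0.129 to 0.0641 (Npc2), -0.0952 to 0.0217 (Nr1h2) and -0.0794 to 0.0151 (Srebf2) in Olig2+ nuclei.

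At a median of 17 to 39 reads per peak, weak distal peaks have wide errors, and 2 libraries per group limit every test.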
